A study of Rattus norvegicus with 6 samples.

Results

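Transcripts of the neurotrophins and of their receptors were examined in the medial prefrontal cortex of rats after a single dose of lysergic acid diethylamide (LSD), a hallucinogen that acts on serotonin receptors. The members were all probe sets that the platform annotation assigns to exactly 1 of 6 genes (Bdnf, Ntf3, Ntf4, Ntrk2, Ntrk3 and Ngfr), which gave 17 of the 8740 probe sets tested, for 6 of 4736 genes. Bdnf had 7 of them and each other gene had 2. The animals were male Sprague-Dawley rats of 250 to 275 g, with no transgene named in the labels. The LSD group received (+)-LSD tartrate at 1 mg/kg by intraperitoneal injection, the control group received saline by the same route at the same time, and tissue was taken 90 min later. Each group was read on 3 arrays, called LSD 1 to 3 and Saline 1 to 3 after the titles. By the labels, tissue of 4 animals was pooled per group, whereas the study describes each array as a pool of a pair of rats. What separates the arrays of a group is thus unsettled, and the p-values measure no more than that spread, be it technical or biological. A further line of text on each sample names the opposite treatment from its title and treatment label. Groups were taken from the titles. If that line were right instead, each LSD minus saline change printed below would have its sign reversed.

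Neurotrophins are secreted growth factors that keep neurons alive and adjust the strength of their synapses. They are made as precursors and cut to mature ligands, which act through receptor tyrosine kinases of the Trk family: brain-derived neurotrophic factor (BDNF, from Bdnf) and the Ntf4 product bind TrkB (Ntrk2), and the Ntf3 product binds mainly TrkC (Ntrk3). The receptor p75 (Ngfr) binds all neurotrophins and, together with sortilin, their uncut precursors, and can signal cell death. In the cortex Bdnf is transcribed mainly by excitatory neurons, its transcription follows neuronal activity, and alternative starts join different first exons to 1 shared coding exon.

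The alternative starts are shown because the array reads Bdnf with several probe sets. RefSeq, on the GRCr8 assembly, gave 6 starts for Bdnf on the plus strand of chromosome 3. The 60 bases upstream of the first 5 are printed below, 5′ to 3′. Start 6 lies just downstream of start 5, and the stretch before it is left out. The capitals mark TCACGTCA, a variant of the cyclic AMP response element, to which the activity-regulated factor CREB binds.

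Bdnf start 1, chr3:116619573-116619632: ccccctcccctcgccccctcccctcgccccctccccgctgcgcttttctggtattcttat
Bdnf start 2, chr3:116620775-116620834: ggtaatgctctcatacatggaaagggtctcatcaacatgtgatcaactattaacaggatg
Bdnf start 3, chr3:116621911-116621970: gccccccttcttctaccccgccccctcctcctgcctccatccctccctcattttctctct
Bdnf start 4, chr3:116637798-116637857: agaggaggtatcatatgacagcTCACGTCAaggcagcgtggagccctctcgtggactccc
Bdnf start 5, chr3:116639742-116639801: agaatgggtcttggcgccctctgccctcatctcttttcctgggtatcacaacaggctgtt

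The match upstream of start 4 begins 38 bases before the start, on the strand of the gene. Windows of 300 bases, with 250 before and 50 after the start, were searched on both strands for TCACGTCA, whose reverse complement is TGACGTGA. It was found in 1 of the 6 Bdnf windows and in 134 of the 33469 windows of all genes (0.4%). The palindrome TGACGTCA was found in 0 of the 6 Bdnf windows, against 612 of all windows (1.83%), and a window without it lacks only those letters. The files used here do not tie a Bdnf probe set to a start, so no probe set is read as the product of 1 of them.

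The arrays resembled each other closely, with pairwise correlations over probe sets between 0.984 and 0.996. Saline 1 stood apart: 78 of its probe sets, 71 of them higher, were over 1 log2 unit away from what the other arrays averaged, against 2 to 21 on each other array. For some of the probe sets that rest on Saline 1, the change is also given without it. The label of the tissue was set against markers of excitatory cortical neurons, of which 5 of 8 were measured. On the log2 scale Nrgn averaged 11.05 in LSD and 10.99 in saline, Neurod2 6.37 in LSD and 6.36 in saline, and Camk2a 5.48 in LSD and 5.67 in saline. Slc17a7 averaged 4.67 in LSD and 4.83 in saline, and Rorb 3.56 in LSD and 3.54 in saline. Values on this scale have no true zero and no detection calls were used, so levels of different probe sets are not read as relative amounts of transcript. Mean values over the arrays serve below only to choose probe sets and to describe them as bright or dim.

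None of the 17 probe sets changed past the threshold after LSD. With limma and Benjamini-Hochberg adjustment over all 8740 probe sets, 0 of 17 had an adjusted p under 0.05, where 6 of all probe sets (0.0686%) did, 0.0114% with LSD higher and 0.0572% with LSD lower. At an unadjusted limma p under 0.05 there was 1 of 17 (5.88%), against 3.92% of all probe sets. LSD was nominally higher in 5 and lower in 12 of the 17. Their median log2 change, LSD minus saline, was -0.09, against 0.0045 over all probe sets, of which 48.6% were lower. The LSD arrays lay wholly below the saline arrays in 2 of 17 (11.8%), against 3.79% of all probe sets. They lay wholly above them in 0 of 17, against 6.58% (10.4% of all probe sets in either direction).

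**Figure D1:**
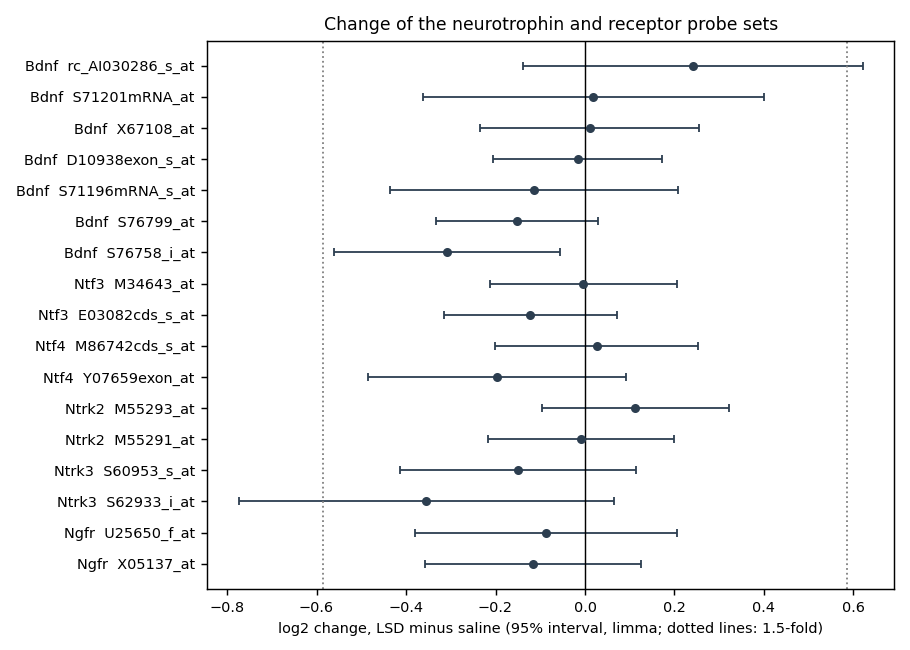
Log2 change, LSD minus saline, of each of the 17 probe sets (points), with the 95% interval of the limma fit (bars). The horizontal axis is in log2 units and the dotted lines mark a 1.5-fold difference in either direction. The interval of Bdnf S76758_i_at (-0.56 to -0.06) is the only one that leaves out 0, before adjustment, and those of Bdnf rc_AI030286_s_at and Ntrk3 S62933_i_at extend past a dotted line.

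The intervals set bounds on the size of a change only against the spread between arrays of a group. If those arrays repeat the same pool, the intervals do not bound a change between animals. For 15 of the 17 probe sets the 95% interval lay within a 1.5-fold difference in both directions, and this held for 92.4% of all probe sets. The exceptions were Bdnf rc_AI030286_s_at, whose upper bound was a 1.54-fold higher level after LSD, and Ntrk3 S62933_i_at, whose lower bound was a 1.71-fold lower level. These folds are on the scale of the deposited values, on which differences of dim probe sets are compressed. The spread between arrays of a group was ordinary for the array, with a median pooled SD of 0.131 over the 17 probe sets and 0.13 over all probe sets. The tissue was bulk cortex, so fewer cells of a type and less RNA per cell cannot be told apart in any of these values.

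Among the ligands, Bdnf had the most probe sets, and they did not share a direction. They were compared one by one, starting with the lowest p. In their names, the ending _s_at or _f_at marks probes that may match several transcripts. The ending _i_at marks an incomplete set, with fewer unique probes than the design required. These endings apply to 9 of the 17 probe sets and make their signal uncertain. S76758_i_at read 4.76, 4.68 and 4.91 in LSD 1, 2 and 3, against 5.22, 4.92 and 5.14 in Saline 1, 2 and 3. All LSD arrays were below all saline arrays, although LSD 3 and Saline 2 nearly met. The log2 change was -0.31 ± 0.11 (SE), with a 95% interval from -0.56 to -0.06 and an unadjusted limma p of 0.0224. This ranked 161 of 8740, and the limma adjusted p was 0.981. Exact two-sided permutation of the 6 labels gave p = 0.1, which is the smallest value that 3 against 3 arrays allow. Leaving out 1 array kept the change between -0.40 and -0.25.

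S76799_at, the brightest Bdnf probe set, also had no overlap between the groups. It read 6.59, 6.63 and 6.59 in the LSD arrays, against 6.70, 6.75 and 6.81 in the saline arrays. The group means were 6.60 ± 0.02 in LSD and 6.75 ± 0.06 in saline (SD, n = 3 each), so both groups were tight and the gap between them was small. The log2 change of -0.15 ± 0.08 (SE) had a limma adjusted p of 0.981 and an interval that reached 0.03. Its exact permutation p was again 0.1, the smallest possible.

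The reading with the largest value in the other direction was rc_AI030286_s_at. It read 3.90, 3.55 and 3.21 in LSD, against 3.28, 3.23 and 3.42 in saline. The groups overlapped, since LSD 3 was the lowest of the 6 arrays while LSD 1 was the highest. The log2 change of 0.24 ± 0.17 (SE, limma adjusted p = 0.981) became 0.07 without LSD 1 and 0.41 without LSD 3. This probe set is dim, at the 12.5 percentile of mean value among all probe sets.

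The 4 remaining Bdnf probe sets had smaller changes. S71196mRNA_s_at read 5.20, 4.90 and 5.09 in LSD, against 4.91, 5.40 and 5.21 in saline, a log2 change of -0.11 ± 0.14 (SE). S71201mRNA_at read 5.11, 4.74 and 4.97 in LSD, against 4.67, 5.27 and 4.83 in saline, a log2 change of 0.02 ± 0.17 (SE). Both were lower in Saline 1 than in the other saline arrays, and without Saline 1 their changes were -0.24 and -0.11. X67108_at read 2.86, 2.84 and 3.02 in LSD, against 2.72, 2.97 and 3.005 in saline, a log2 change of 0.01 ± 0.11 (SE). D10938exon_s_at read 4.83, 4.84 and 4.86 in LSD, against 4.95, 4.83 and 4.80 in saline, a log2 change of -0.02 ± 0.08 (SE). Its LSD arrays were nearly identical and sat inside the range of the saline arrays. The limma adjusted p of these 4 probe sets was between 0.981 and 0.994.

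**Figure D2:**
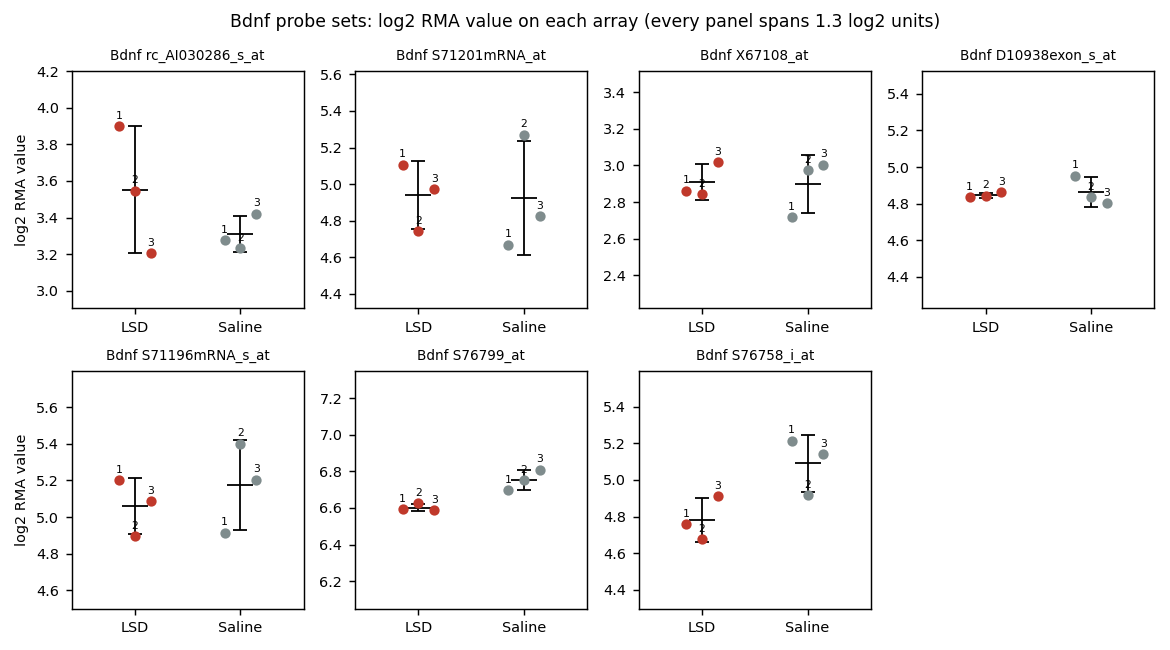
Log2 RMA value of the 7 Bdnf probe sets on each array. Points are arrays, numbered by replicate, with LSD in red on the left and saline in grey on the right of each panel. Horizontal bars are group means, error bars are the SD (n = 3 each), and every panel spans the same number of log2 units. The groups do not overlap for S76799_at and S76758_i_at, with LSD lower, and overlap for the other 5.

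An effect read by 1 Bdnf probe set and not by another is a difference only where the difference itself was tested. For each pair of probe sets of 1 gene the within-array difference was fitted with limma over all 3281 such pairs of 1565 genes. Among the 21 Bdnf pairs, 0 passed the adjusted threshold, as among all pairs (0%). An unadjusted limma p under 0.05 was found for 2 of the 21 (9.52%), against 4.88% of all pairs. The median absolute difference of change was 0.17 over the Bdnf pairs and 0.104 over all pairs.

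The pair that differed most set S76758_i_at against rc_AI030286_s_at. Their difference on the log2 scale was 0.86, 1.13 and 1.70 in the LSD arrays, against 1.94, 1.68 and 1.72 in the saline arrays. LSD 3 was within the saline range and the other LSD arrays were below it. The difference of the changes was -0.55 ± 0.21 (SE), with a 95% interval from -1.06 to -0.04 and a limma adjusted p of 0.972. Without LSD 1 it was -0.36, and without LSD 3 it was -0.79. The other pair was D10938exon_s_at against S76758_i_at. Its differences were 0.07, 0.17 and -0.05 in LSD, against -0.26, -0.08 and -0.34 in saline, and did not overlap. The difference of the changes was 0.29 ± 0.11 (SE, limma adjusted p = 0.972), and the exact permutation p was 0.1. No pair of Bdnf probe sets was thus told apart by its change, and the width of the intervals does not show that they changed alike.

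Across the 6 arrays the Bdnf probe sets did not all rise and fall together. Of the 21 pairwise correlations 8 were positive and 13 negative, with a median Pearson r of -0.02, given as a description. The pair S71201mRNA_at and S71196mRNA_s_at stood at 0.88 and X67108_at with D10938exon_s_at at -0.75. The probe sets whose groups did not overlap, S76799_at and S76758_i_at, had an r of 0.65. All of these share the same 6 arrays, and several probe sets are dim, with X67108_at at the 3.81 percentile of mean value among all probe sets.

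The other ligand genes overlapped between the groups in every probe set. Ntf3, which encodes neurotrophin-3, had a probe set M34643_at that read 5.15, 5.07 and 5.29 in LSD, against 5.16, 5.23 and 5.13 in saline. Its log2 change was -0.0037 ± 0.09 (SE), and the LSD arrays spanned the saline arrays on both sides. E03082cds_s_at of the same gene read 3.12, 3.26 and 3.20 in LSD, against 3.34, 3.25 and 3.36 in saline. Its log2 change was -0.12 ± 0.08 (SE), with 1 saline array inside the LSD range. Both had an adjusted limma p of at least 0.981.

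Ntf4, the other TrkB ligand gene, had 2 probe sets whose changes pointed in opposite directions. M86742cds_s_at read 4.97, 5.08 and 5.22 in LSD, against 5.16, 5.05 and 4.98 in saline, a log2 change of 0.03 ± 0.10 (SE). Y07659exon_at read 3.70, 4.08 and 4.06 in LSD, against 4.28, 4.06 and 4.08 in saline, a log2 change of -0.20 ± 0.12 (SE). In Y07659exon_at LSD 1 was well below the other 5 arrays, and the change was -0.07 without it. The difference of the changes between the probe sets was 0.22 (limma adjusted p = 0.977, exact permutation p = 0.1).

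Among the receptors, the TrkB gene Ntrk2 had 1 probe set close to no change and 1 nominally higher. M55291_at read 7.14, 7.30 and 7.36 in LSD, against 7.29, 7.32 and 7.23 in saline. Its log2 change was -0.01 ± 0.09 (SE), with a 95% interval from -0.22 to 0.20. M55293_at read 4.73, 4.59 and 4.55 in LSD, against 4.54, 4.42 and 4.58 in saline, a log2 change of 0.11 ± 0.09 (SE). LSD 1 and LSD 2 were above every saline array and LSD 3 was not. The adjusted limma p was 0.994 and 0.981 for the 2 probe sets in this order.

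The TrkC gene Ntrk3 was nominally lower in both of its probe sets. S60953_s_at read 6.82, 6.97 and 7.12 in LSD, against 6.94, 7.20 and 7.21 in saline, a log2 change of -0.15 ± 0.11 (SE). Without Saline 1 its change was -0.24. S62933_i_at read 2.63, 2.78 and 2.90 in LSD, against 3.52, 2.75 and 3.10 in saline. Its log2 change of -0.35 ± 0.18 (SE) was the lowest of the 17, and the groups overlapped through Saline 2. This probe set is dim, at the 4.55 percentile of mean value among all probe sets. Saline 1 held a single high reading, and the change was -0.16 without Saline 1 and -0.54 without Saline 2. Both had a limma adjusted p of 0.981.

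Ngfr, which encodes p75 and is known in the adult brain chiefly from cholinergic neurons of the basal forebrain that project to the cortex, was also nominally lower in both. U25650_f_at read 8.93, 9.09 and 9.04 in LSD, against 8.83, 9.26 and 9.23 in saline, a log2 change of -0.09 ± 0.13 (SE). X05137_at read 7.34, 7.42 and 7.57 in LSD, against 7.40, 7.65 and 7.63 in saline, a log2 change of -0.12 ± 0.10 (SE). In both probe sets Saline 1 was the low saline array and lay below the LSD mean. The 2 probe sets varied together over the 6 arrays (Pearson r = 0.84), whereas the 2 of Ntrk2 varied in opposite directions (r = -0.76), as a description. Without Saline 1 the changes were -0.22 and -0.20, and the limma adjusted p was 0.539 and 0.570.

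**Figure D3:**
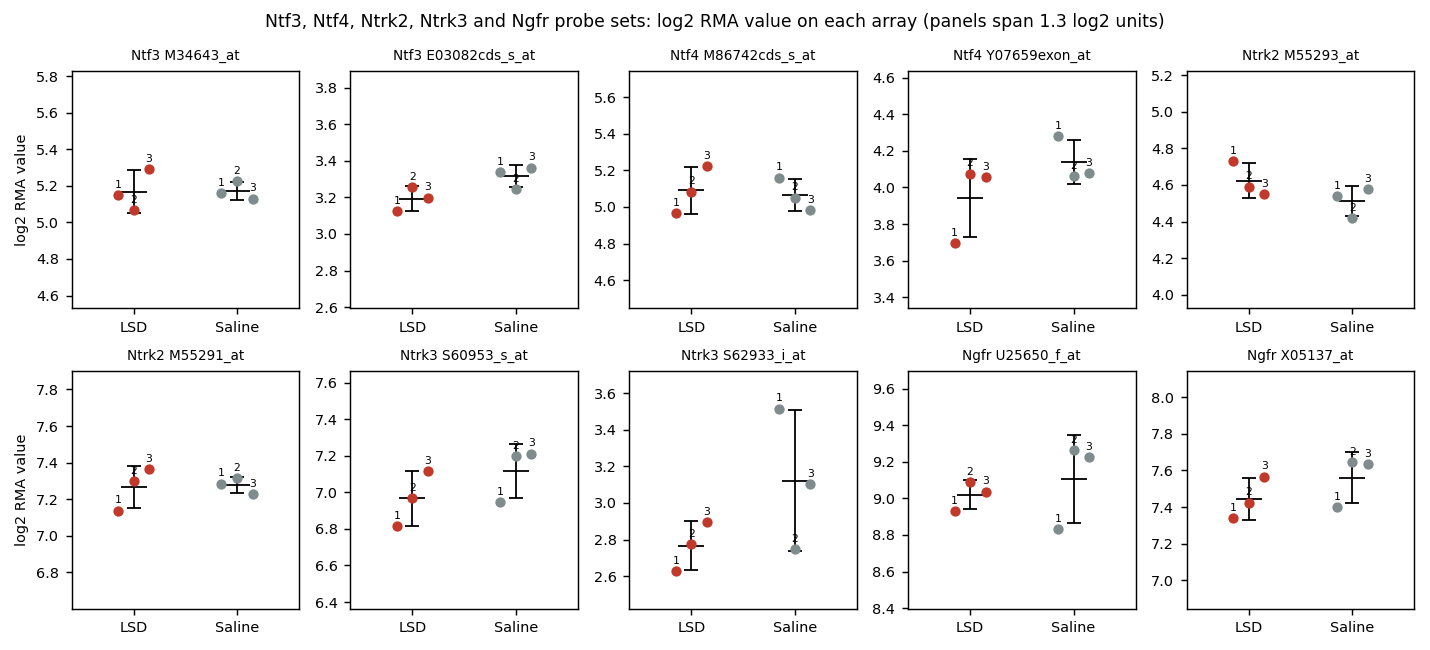
Log2 RMA value of the 10 probe sets of Ntf3, Ntf4, Ntrk2, Ntrk3 and Ngfr on each array, with LSD in red on the left and saline in grey on the right of each panel. Points are arrays numbered by replicate, horizontal bars are means and error bars the SD (n = 3 each). The groups overlap in every panel, and Saline 1 is the high point of Ntrk3 S62933_i_at and the low saline point of both Ngfr probe sets.

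The number of separated probe sets varied with the array left out, as it did over all probe sets. Without Saline 1, 6 of the 17 probe sets had no overlap between the groups, all with LSD lower: Bdnf S71196mRNA_s_at, S76799_at and S76758_i_at, Ntrk3 S60953_s_at, and both of Ngfr. With 3 arrays against 2 a gap is more frequent, and 28.5% of all probe sets showed one in that fit. Leaving out LSD 1, 2 or 3 gave 2, 4 and 4 of the 17, against 21.5%, 17.4% and 19.5% of all probe sets. Leaving out Saline 2 or 3 gave 5 and 3, against 17.2% and 16.7%. The number of probe sets past the adjusted threshold stayed at 0 of 17 in each of these fits.

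The array with the most low readings was LSD 1. It was the lowest of the 6 arrays in 7 of the 17 probe sets and the highest in 2. LSD 2 was lowest in 3 and highest in 0, and LSD 3 was lowest in 2 and highest in 4. Among the saline arrays, Saline 1 was lowest in 3 and highest in 4, Saline 2 lowest in 1 and highest in 4, and Saline 3 lowest in 1 and highest in 3. The median deviation of the 17 probe sets from their own means was -0.11, -0.05 and 0.01 in LSD 1, 2 and 3, against -0.01, 0.04 and 0.09 in Saline 1, 2 and 3. LSD 3 therefore lay above Saline 1 by this measure, and the groups overlapped.

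**Figure D4:**
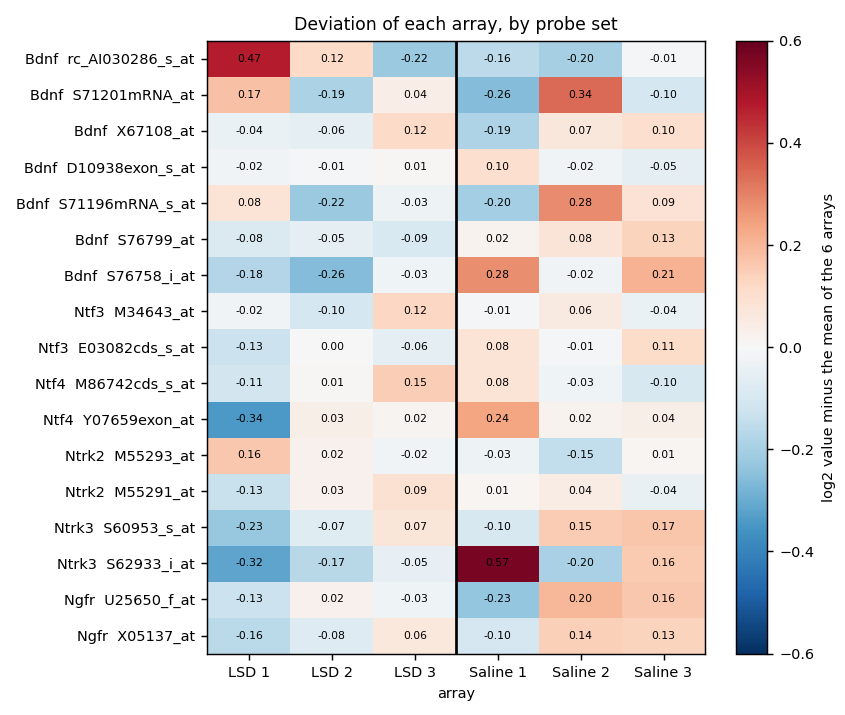
Deviation of each array (columns, LSD left of saline) from the mean of the 6 arrays, for each of the 17 probe sets (rows), in log2 units. Red is above and blue below the mean, and the value is printed in each cell. The rows of Bdnf S76758_i_at and S76799_at and of Ntrk3 S62933_i_at are below 0 in all LSD arrays, and the highest cell is Saline 1 of Ntrk3 S62933_i_at at 0.57.

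Other measures of the arrays, some of which did not overlap between the groups, are given beside these values. Summed marker lists were compared as the mean deviation of their measured genes. Markers of striatum, a region beneath the frontal cortex, had 7 of 9 genes measured, 6 of them lower, and lay between -0.14 and -0.02 in LSD and between 0.08 and 0.10 in saline. Choroid plexus and meninges markers (4 of 6 measured, 3 lower) lay between -0.19 and -0.01 in LSD and between 0.08 and 0.17 in saline. Inhibitory neuron markers (6 of 7 measured, 5 lower) lay between -0.04 and -0.01 in LSD and between 0.01 and 0.05 in saline. In these 3 lists the groups did not overlap, with LSD lower (exact permutation p = 0.1 for each, the smallest possible). Lists for excitatory neurons, astrocytes, oligodendrocytes, microglia, vessels and basal forebrain cholinergic neurons overlapped. The single markers of lowest p in the lists were the choroid plexus transport protein Ttr (-0.49, limma adjusted p = 0.238) and the striatal opioid precursor Penk (-0.46, limma adjusted p = 0.341). In the other lists those of lowest p were Aqp4 of astrocytes (0.41), Cd74 of microglia (0.26), Pvalb of inhibitory neurons (0.19), Camk2a of excitatory neurons (-0.19), Flt1 of vessels (0.13), Mag of oligodendrocytes (0.12) and Chat of cholinergic neurons (0.04), all with a limma adjusted p of at least 0.981. For Aqp4, Cd74 and Mag, Saline 1 was the lowest of the 6 arrays (3.30, 5.63 and 8.35), and changes without it are not given. The single genes named do not stand for their lists. Of the measured markers, 4 of 7 were lower for astrocytes, 2 of 6 for microglia, 2 of 5 for excitatory neurons, 5 of 6 for vessels and 3 of 6 for oligodendrocytes. Among astrocyte markers S100b was at -0.24 and Slc1a3 at -0.25, the second with no overlap (both named after their values were seen, limma adjusted p = 0.981). The beta-actin control, whose 3′ minus 5′ probe set difference grows with RNA degradation, was 0.687 ± 0.041 in LSD and 0.787 ± 0.044 in saline (SD, n = 3 each, exact permutation p = 0.1), with no overlap. The same measure of Gapdh was 0.492 ± 0.091 in LSD and 0.523 ± 0.043 in saline (exact permutation p = 0.7). The part of any of these in the neurotrophin values was not tested.

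The wider neurotrophin pathway did not change past the threshold either. Of 183 genes listed by role, 108 were measured, each by its brightest probe set. With limma 0 of 108 passed the adjusted threshold, against 1 of all 4736 genes (0.0211%). At an unadjusted limma p under 0.05 there were 4 of 108 (3.7%), against 3.21% of all genes. Of these genes 49 were nominally above and 59 below saline after LSD. The median change was -0.02 on the log2 scale, against 0.0056 over all genes. The groups did not overlap in 10 genes, 6 with LSD higher and 4 with LSD lower, against 6.97% and 3.34% of all genes (10.3% in either direction). The adjusted limma p of every gene named from the pathway was at least 0.981.

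**Figure D5:**
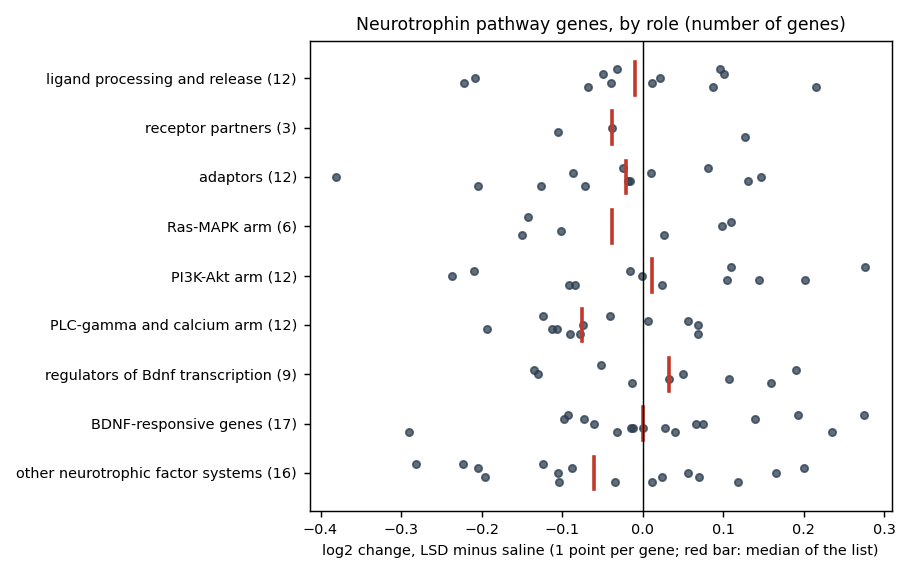
Log2 change, LSD minus saline, of 99 measured pathway genes in 9 lists (1 point per gene, the number of genes in brackets), in rows by role, with the median of each list as a red bar. The medians lie between -0.076 (PLC-gamma and calcium arm) and 0.03 (regulators of Bdnf transcription).

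Genes that turn precursors into ligands or release them had 12 of 16 measured, 6 higher and 6 lower. They included Cadps2, which promotes secretion of BDNF from dense-core vesicles (0.21 ± 0.17), Plg, the precursor of plasmin (-0.22 ± 0.18), and the proprotein convertase Pcsk7 (0.10 ± 0.08, SE of the log2 change for each). The convertase Furin was at 0.02. Among the partners of the receptors, 3 of 17 were measured. Bex3, which binds the p75 death domain, had all LSD arrays above all saline arrays at a change of 0.13 ± 0.08 (SE). In its second probe set the groups overlapped, at a change of 0.065. The receptor phosphatase gene Ptprs was separated in the other direction at -0.11 ± 0.08 (SE), while its other probe sets overlapped at -0.22, -0.24 and 0.04. Sortilin (Sort1) was at -0.04 ± 0.11 (SE), and its second probe set was at 0.23 with no overlap between the groups.

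Adaptors that couple Trk receptors to their pathways had 4 of 12 higher and 8 lower (23 listed), with Sh2b2 at -0.38 ± 0.19, Grb2 at 0.13 ± 0.09 and the phosphatase Ptpn11 at -0.13 ± 0.10 (SE). In the Ras-MAPK arm 3 of 6 measured genes were higher and 3 lower (17 listed). They included the GTPase Nras (-0.14 ± 0.12), Map2k1 (-0.15 ± 0.13) and Map2k5 (0.10 ± 0.12), where 1 SE follows each log2 change. Other probe sets of these genes pointed both ways. Those of Grb2 were at 0.13 (no overlap) and -0.07, and those of Map2k1 at -0.05 and 0.11. Those of Ptpn11 were at -0.35 (no overlap), -0.06, -0.04 and 0.20. The PI3K-Akt arm had 6 of 12 higher and 6 lower (16 listed). Gsk3b, a kinase that Akt inhibits, was at 0.28 ± 0.12 (SE), but its second probe set was at -0.07. Pik3cd was at -0.21 ± 0.11 and Pdpk1, which phosphorylates Akt, at 0.20 ± 0.11 (SE).

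The phospholipase C-gamma and calcium arm had 4 of 12 genes higher and 8 lower (15 listed). Camk2a, a calcium-dependent kinase of excitatory synapses, was at -0.19 ± 0.10 (SE). Its dimmer probe set was at -0.45, with all LSD arrays below all saline arrays and a limma adjusted p of 0.981. Prkcd (-0.11 ± 0.08, no overlap) and the calcium channel gene Itpr1 (-0.11 ± 0.09, SE) were small in size. A second Prkcd probe set overlapped at -0.10. The other Itpr1 probe sets were at -0.16, -0.04, 0.08 and 0.31, and in the last all LSD arrays lay above all saline arrays (unadjusted p = 0.0173, limma adjusted p = 0.981). The kinase gene Map3k1 had the largest value of the pathway at 0.43 ± 0.35 (SE), beside a low reading of 4.55 in Saline 1, and without Saline 1 it was -0.06. Its other probe sets were at -0.03 and -0.16.

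Regulators of Bdnf transcription had 9 of 21 measured, 5 higher and 4 lower. Creb1, which encodes CREB, was at 0.11, and Rest, a repressor of neuronal genes, was at 0.03. The genes of lowest p were the histone deacetylase Hdac2 (0.19 ± 0.10), the glucocorticoid receptor Nr3c1 (0.16 ± 0.10) and Usf2 (-0.14 ± 0.08, SE), and the groups did not overlap for Usf2, with LSD lower.

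Genes known to respond to BDNF held 4 of the 10 genes whose groups did not overlap. Of 20 listed, 17 were measured. They split into 9 higher and 8 lower, and the median change was 0.00077 on the log2 scale. All 4 had LSD higher (23.5% of the 17), against 6.97% of all genes. Nptx1, which gathers glutamate receptors at synapses, read 6.68, 6.59 and 6.58 in LSD, against 6.23, 6.43 and 6.37 in saline. Its log2 change was 0.27 ± 0.09 (SE), and its other 2 probe sets were at -0.03 and -0.09. Arc, made at active synapses, read 7.82, 7.76 and 7.74 in LSD, against 7.54, 7.45 and 7.62 in saline, a log2 change of 0.23 ± 0.08 (SE). The other 2 were the neurite growth gene Nrn1 (0.14) and the early gene Fos (0.07), whose other probe sets overlapped at -0.02 and -0.20. Egr2 pointed the other way at -0.29 ± 0.13 (SE), Vgf was at 0.00077 and Npy at 0.03. All of these genes also respond to neuronal activity and other signals, so their values are not readings of TrkB alone.

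Other neurotrophic factor systems had 7 of 16 measured genes higher and 9 lower (22 listed). Il6st, the shared receptor of ciliary neurotrophic factor and related cytokines, read 4.52, 4.89 and 4.88 in LSD, against 5.07, 5.04 and 5.02 in saline. Its log2 change was -0.28 ± 0.11 (SE), with no overlap. Nenf, which encodes the secreted factor neudesin, read 7.12, 7.11 and 7.17 in LSD, against 6.98, 6.96 and 6.96 in saline, a log2 change of 0.17 ± 0.08 (SE). The growth factor Ptn was at -0.22 ± 0.12 (SE).

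For the brightest Bdnf probe set, S76799_at, the genes with the most similar values over the 6 arrays were listed by Pearson r among 6989 probe sets, as a description. The highest was Klf9, a transcription factor induced by glucocorticoids and thyroid hormone (r = 0.998). Its probe set read 6.32, 6.49 and 6.36 in LSD, against 6.75, 7.01 and 7.19 in saline, a log2 change of -0.60 ± 0.12 (SE, limma adjusted p = 0.348). Its LSD arrays were all below its saline arrays, as in Bdnf S76799_at, while a second Klf9 probe set overlapped at a change of -0.22. The heat shock protein gene Hspa4 came next (r = 0.997, change -0.32), then the mucin gene Muc2 (r = 0.991, change -0.10). A second Hspa4 probe set was at -0.68 with no overlap (limma adjusted p = 0.116). The Muc2 probe set read only 3.63 to 3.80, and the other Muc2 probe sets overlapped at -0.06 and 0.03. In all, 18 of the 6989 had an r above 0.95. For the brightest Ntrk2 probe set, M55291_at, the nearest were the calcium pump gene Atp2b3 (r = 0.996), the desaturase Scd (0.993) and the calcium channel subunit Cacnb1 (0.988). Each r holds for 1 probe set of the gene. That of Scd read only 2.36 to 2.64, where the lowest value on any array was 2.11. Its change was -0.0042, against -0.21 in the brighter Scd probe set. For Atp2b3 the change was -0.01, against 0.0012 and -0.10 in the other probe sets.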

How the data were processed

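The authors deposited log2 values made with RMA in the affy package, a method that removes background, sets all arrays to the same quantiles and condenses the probes of a set to 1 value. A change shared by most transcripts is thereby lost. No build was named for the arrays, so probe sets have no coordinates here, and those of the Bdnf starts come from RefSeq on GRCr8. Arrays have no read depth, and their number limits the precision. Of 8799 probe sets, 59 controls were left out. Of the 8740 tested, 7006 had 1 gene symbol, 308 several and 1426 none, and 6985 matched a RefSeq gene of GRCr8 by gene ID, including all 17 members.

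LSD and saline arrays were set against each other by limma 3.58.1 under R 4.3.3 (lmFit, eBayes, two-sided, no covariate), with Benjamini-Hochberg adjustment over all probe sets and a threshold of 0.05. SE and 95% intervals come from that fit. Single comparisons also had an exact permutation of the 6 labels (20 assignments, smallest p 0.1). Differences between probe sets of 1 gene were fitted with limma over all such pairs. The scripts were tested on simulated data. Promoter windows came from RefSeq, which in the table used gave 6 for Bdnf. The replicate numbers of the titles were not used as pairs in the main fit. Deviations of equally numbered arrays from their group means correlated at -0.02, -0.23 and 0.17. Deviations from a mean of 3 arrays are tied to each other, so these values cannot decide whether the numbers pair the arrays.

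The members, lists and tests were chosen with earlier results of these data known. Named were every member probe set, up to 3 genes of lowest p per pathway list (1 of the lists is not reported here on its own), 1 per cell type list, and 3 genes of highest correlation with the brightest Bdnf and Ntrk2 probe sets. Chosen after their values were seen were Furin, Creb1, Rest, Nrn1, Fos, Vgf, Npy and Nrgn. Alternatives were other scalings, leaving out dim probe sets, an intensity trend in a robust prior, weights per array, the replicate block, 1 value per gene, exact tests, and leaving out each array.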

Additional observations from a re-analysis of the deposited data

How the results depend on the processing

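No member probe set and no pathway gene passed the adjusted threshold in limma under any alternative run, and the lowest adjusted p of a member was 0.152 (Bdnf S76758_i_at, array weights). The exact permutation and rank tests of 3 against 3 arrays cannot go below 0.1. The count over all probe sets was less stable: 6 became 16 among probe sets above the median brightness, 20 with an intensity trend and robust prior, 42 with array weights, 0 with the replicate block, and 0 to 3 when 1 array was left out (3 without Saline 1, 0 without each other array). The marker Ttr passed with the trend and robust prior (adjusted p = 0.0183) and with array weights (0.0338), and Penk with array weights (0.0127). The replicate block changed no call on a member or pathway gene. Of the 17 probe sets, 2 did not overlap, 1 among the 5 above the median brightness, and 2 to 6 with 1 array left out. Their median change was then between -0.11 (without Saline 1) and -0.0093 (without Saline 2). Among the 5 above the median brightness, all 5 were nominally lower, where 12 of the 17 were. The median change of those 5 was -0.12, against 0.0057 over all probe sets of that run. With array weights, 5 members had an unadjusted p under 0.05, against 1.

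Small changes turned sign. With array weights Bdnf S71201mRNA_at became -0.12, X67108_at -0.091, D10938exon_s_at 0.025, Ntrk2 M55291_at 0.039, Chat -0.011 and Map2k5 -0.028. With 1 value per gene, the mean of the probe sets gave -0.085 for Ntf4 and 0.051 for Ntrk2, and the most variable probe set gave 0.24 for Bdnf, -0.20 for Ntf4 and 0.11 for Ntrk2, whereas the brightest gave -0.15, 0.03 and -0.01. Leaving out 1 array moved Bdnf S71201mRNA_at between -0.11 and 0.19, X67108_at between -0.080 and 0.064, D10938exon_s_at between -0.048 and 0.028, S71196mRNA_s_at between -0.24 and 0.0011, Ntf3 M34643_at between -0.066 and 0.048, Ntf4 M86742cds_s_at between -0.040 and 0.089, Ntrk2 M55291_at between -0.058 and 0.055, Sort1 between -0.15 and 0.019, Chat between -0.035 and 0.11, Map2k5 between -0.037 and 0.17 and Map3k1 between -0.062 and 0.68. The cause of these shifts was not tested. No detection calls were used, so how far dim probe sets lay above background was not tested, and 3 arrays per group limit the precision.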
